A study of Ursus arctos with 5 samples.

Results

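Cytosolic ribosomal proteins are the protein subunits of the ribosomes that translate nuclear mRNAs. Their transcripts were followed in gastrocnemius, a calf muscle, of 2 grizzly bears (Ursus arctos) biopsied while active in October and again while hibernating in February. All transcripts of the deposited table were taken whose human gene name begins with RPL or RPS followed by a number, or is RPLP0 to RPLP2 or RPSA, without the S6 kinases (RPS6K names). This gave 57 transcripts with 34 gene names, of 9093 transcripts that carry a gene name and 26614 in all. The bears are called Tia and Star after the columns of the table, with 1 single-end library per bear and state, so that n = 2 bears per state and no library is repeated within a bear. The labels give adults of 10 years throughout, whereas the study describes a subadult and an adult; in its own list of transcripts the values of Tia stand under the subadult and those of Star under the adult. The bears were captive, went without food in hibernation and were anaesthetised for each biopsy, with a lower dose in hibernation. Libraries of pooled RNA and of paired-end reads were not analysed here.

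A ribosome joins a small and a large subunit, and each holds 1 copy of nearly every one of its proteins around a core of ribosomal RNA. The proteins are needed in equal numbers, and their mRNAs are short, abundant and share a terminal oligopyrimidine (TOP) tract at the start of the message. Through this tract the kinase mTOR controls how actively they are translated, so that the level of the mRNA and the output of protein need not move together. In skeletal muscle the number of ribosomes sets the capacity for protein synthesis, and making them is a large part of muscle growth.

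The sequence names came from alignment to human proteins. Of the 79 proteins of a standard mammalian ribosome listed here, 31 had a transcript by that name, 12 of 32 in the small and 19 of 47 in the large subunit. The other 3 of the 34 names include RPL22L1, a paralog of RPL22, and RPS19BP1, which binds RPS19 and is no part of the ribosome. RPSA, RPLP0, RPLP2, RPL3 and its muscle paralog RPL3L were not among the annotated names and are not analysed here. Ribosomal protein genes have many near-identical processed copies in mammalian genomes, and the sources used here do not give the treatment of reads matching more than 1 transcript, so that each value may include reads of such copies.

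RPKM, the unit of the table, is the number of reads divided by transcript length and by the aligned reads of the library. Steps in these values placed the depth between 44.7 and 54.2 M (mega) aligned reads per library, and at least 47.0 reads stood behind each ribosomal protein value. Each gene is given by its transcript with the most reads. The difference of a bear is its log2(RPKM + 0.5) in February less that in October, which makes differences of low transcripts look smaller than they are. Muscle identity was visible in 5 of 11 fibre markers that carried a name (MYH1, MYH2, MYH7, TTN and TNNC2), each between 155 and 7801 RPKM in every library.

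Most ribosomal protein mRNAs had higher values in hibernation in both bears, with a larger median difference in Tia than in Star, and none passed the test between the states. Of the 57 transcripts, 53 were higher in both bears, where 47.8% of all annotated transcripts were. Both bears were lower for 2 transcripts, against 17.2% of all annotated transcripts. By gene, 31 of 34 were higher in both, 1 was lower in both and 2 differed in direction (RPL9 and RPS19BP1). Taken singly, 54 of the 57 were higher in Tia (59.7% of all annotated transcripts) and 54 in Star (70.8%). The median log2 difference over the 34 genes was 0.50 in Tia (quartiles 0.37 and 0.62) and 0.24 in Star (quartiles 0.10 and 0.37). Over all annotated transcripts the medians were 0.12 and 0.15. Put together, the 34 transcripts summed to 11928 RPKM in the active and 17567 RPKM in the hibernating library of Tia, which is 1.47-fold. In Star the sums were 10161 and 11999 RPKM, which is 1.18-fold. The hibernating library of Tia stood apart, and the hibernating library of Star lay at the level of the active library of Tia.

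**Figure D1:**
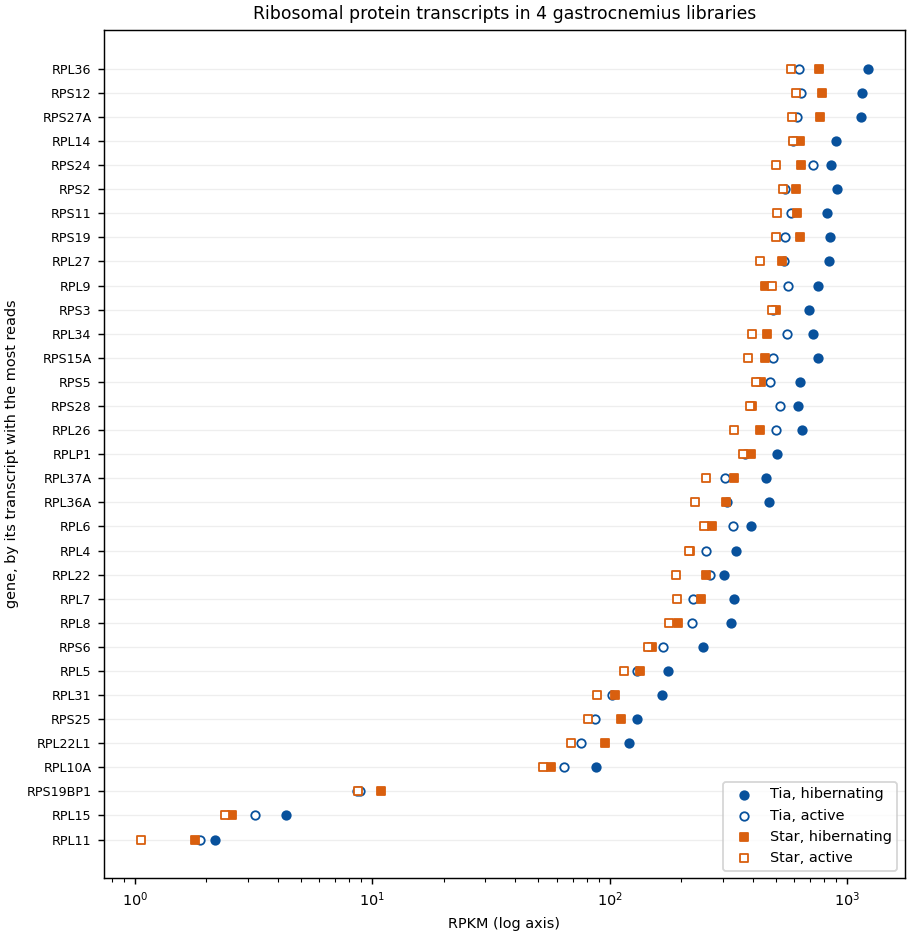
RPKM (log axis) of 33 of the 34 genes, each by its transcript with the most reads, in the 4 libraries; filled symbols are hibernating and open symbols active, circles are Tia and squares are Star. The hibernating library of Tia is the highest for 32 of the 33, the active library of Star is the lowest for 30, and 3 names lie under 15 RPKM, far below the others.

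This order held through most of the set. The hibernating library of Tia was the highest of the 4 for 32 of 34 genes and the active library of Star the lowest for 30. The hibernating library of Star exceeded the active library of Tia for 16 of 34. In consequence both hibernating libraries were above both active libraries for 28 of the 57 transcripts, against 34.6% of all annotated transcripts, and both were below for 1, against 8.8%. By gene both hibernating libraries were above both active ones for 15 of 34, against 35.8% of all annotated genes. The difference was larger in Tia than in Star for 50 of the 57 transcripts, against 44.8% of all annotated transcripts. With 1 library per bear and state the difference between the bears cannot be tested.

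No single ribosomal protein transcript passed the test between the states. With limma on 2 hibernating and 2 active libraries, 0 of 57 had an adjusted p under 0.05, as had 0% of the 9093 transcripts, and the adjusted p of the 57 lay between 0.541 and 0.888. An unadjusted p under 0.05 was reached by 2 of the 57 in that fit, both higher, against 7.19% of all annotated transcripts higher and 1.89% lower. With the bear as a replicate block 0 of 57 had an adjusted p under 0.05 (0% of all) and 3 had an unadjusted p under 0.05, all higher, against 10.3% of all annotated transcripts higher and 3.24% lower. A score modelled on NOISeq, the tool of the study, compares each difference between states with the differences between bears, and 2 of 57 reached the study's threshold of 0.8, with 2.1% of all annotated transcripts higher at that score. They were RPL36 and a second transcript of RPL36A, both higher, and no member was lower at that score, as were 1.51% of all. For 1 value, the smallest two-sided p of an exact permutation test with 2 libraries per state is 0.333.

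The spread of the differences within the set was narrower than among all annotated or other abundant transcripts. In Tia the middle 50% of the 34 genes spanned 0.25 on the log2 scale, against 0.65 for all annotated transcripts and 0.62 for the 214 others at a mean of 100 RPKM or more. In Star the spans were 0.26, 0.39 and 0.43. Genes of the mitochondrial ribosome and of ribosome biogenesis spanned 0.44 and 0.41 in Tia but 0.20 and 0.25 in Star, so that in Star the set was no narrower than these lists. The median difference of these 214 abundant transcripts was 0.06 in Tia and 0.09 in Star, and of the 116 among them under 1000 bases, 0.03 and 0.10. Within a bear the order of the genes by RPKM was nearly the same in both states. The Spearman rho over the 34 genes was 0.98 in Tia and 0.99 in Star. Over the 30 genes of 10 RPKM or more it was 0.97 and 0.98. It was 0.87 and 0.94 over all annotated transcripts, and 0.84 and 0.89 over the 214 abundant others. Genes of a library share its depth and are not independent.

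**Figure D2:**
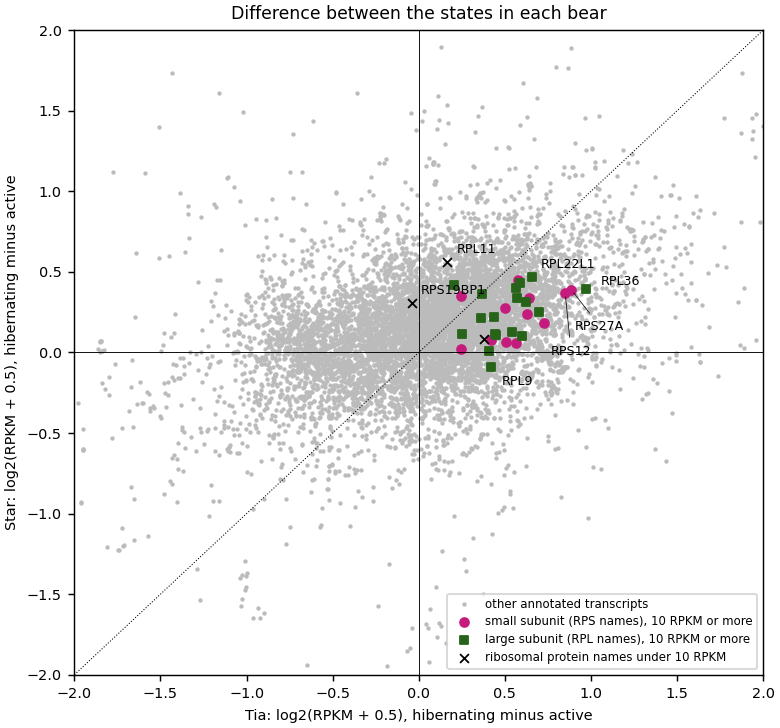
Difference between the states in Tia (x axis) and Star (y axis) for 33 of the 34 ribosomal protein names and 9036 other annotated transcripts (grey, of which 75 lie beyond the axes). Circles and squares are small- and large-subunit genes at 10 RPKM or more and crosses 3 lower names; 32 of the 33 lie to the right of 0 and 29 below the dotted line of equal difference.

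How far Star contributes depends on the scaling of the libraries. The bulk of transcripts was itself higher in hibernation, and dividing each library by the median ratio of the annotated transcripts lowers all differences by 0.13 in Tia and by 0.20 in Star. The median over the 34 genes was then 0.37 in Tia and 0.04 in Star, with 32 of 34 genes higher in Tia and 20 of 34 in Star. Of the 57 transcripts, 32 were higher in both bears on that scale, against 29.3% of all annotated transcripts, and 9 had no overlap between the states, against 19.3%. Relative to the bulk of transcripts, ribosomal protein mRNAs were thus higher in hibernation in Tia. In Star the distance was small, with a scaled median of 0.04 beside -0.03 for all annotated transcripts. There 33 of the 57 transcripts were higher, beside 4200 of the 9093. Under upper-quartile scaling the median over the 34 genes in Star was 0.08, beside 0.01 for all annotated transcripts, with 21 of 34 higher.

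**Figure D3:**
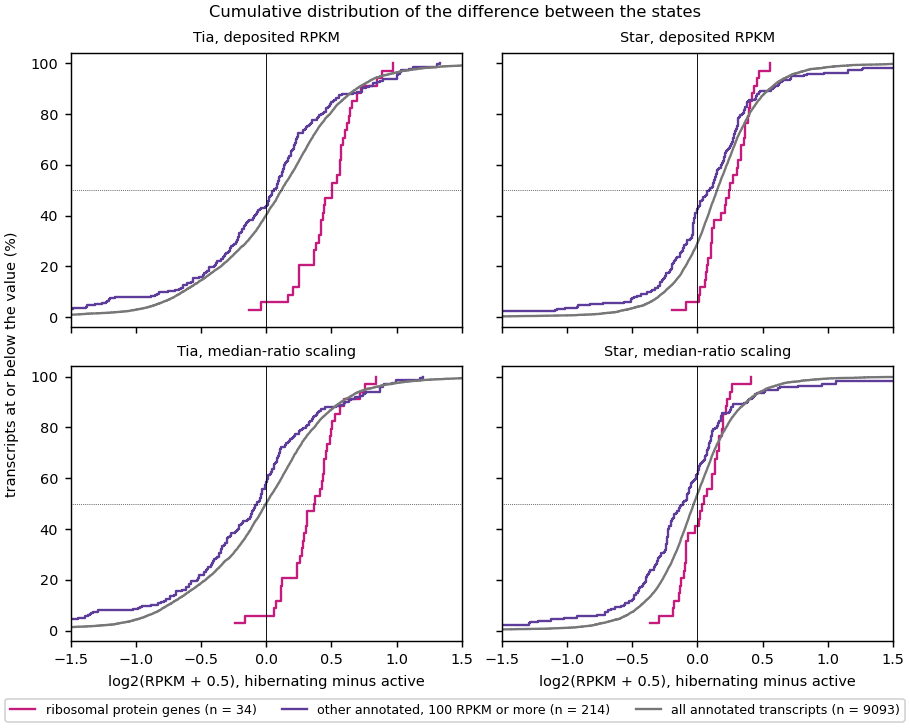
Cumulative share of transcripts (y axis, %) at or below a given difference between the states (x axis, log2 scale, shown from -1.5 to 1.5), for each bear and for the deposited and the median-ratio scaled values. In Tia the curve of the 34 ribosomal protein genes lies to the right of the others over most of its height in both panels; in Star its median is 0.24 as deposited and 0.04 after scaling.

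Leaving out the hibernating library of Tia brought the median over the 57 transcripts from 0.34 to 0.13, against 0.15 for all annotated transcripts in the same 3 libraries. Without the hibernating library of Star it was 0.60. These values set a lone library of a state against both of the other, so that they also hold the difference between the bears. Within Star alone, without both libraries of Tia, the median over the 57 transcripts was 0.23, against 0.15 for all annotated transcripts.

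Among small-subunit proteins the largest differences were those of RPS27A and RPS12. RPS27A, made as a fusion with ubiquitin that is cut off to free both proteins, stood at 616 RPKM in the active and 1139 in the hibernating library of Tia and at 587 and 768 RPKM in Star (isotig01856). Both hibernating values were above both active ones, and the log2 difference was 0.64 (standard error 0.33, adjusted p = 0.604 from limma, n = 2 bears per state). Since several genes encode ubiquitin, reads of its part of the transcript may come from them. RPS12 went from 640.0 to 1154 RPKM in Tia and from 610.1 to 787 RPKM in Star (isotig01414), a log2 difference of 0.61 (standard error 0.33, adjusted p = 0.614 from limma). These transcripts were among the 5 most abundant, together with RPS24, RPL14 and RPL36.

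RPS25, a protein near the exit site for tRNA that some viral mRNAs need to start translation, went from 87.1 to 129.97 RPKM in Tia and from 81.4 to 112 RPKM in Star (isotig03856), with differences of 0.57 and 0.45 and no overlap between the states. Its mean log2 difference of 0.51 had a standard error of 0.22 and an adjusted p of 0.571 from limma.

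RPS6, the small-subunit protein that S6 kinase phosphorylates downstream of mTOR, was above the median difference of all annotated transcripts in Tia and below it in Star. It was at 168 RPKM active and 248 RPKM hibernating in Tia, and at 145 and 151 RPKM in Star. Its transcript isotig01879 has 3750 bases, long for a mRNA of this family, over which the RPKM averages. RPS3, which lies at the entry of the mRNA channel, had 486 and 690.0 RPKM in Tia and 481 and 503 RPKM in Star (isotig02216). The log2 differences of both genes were above 0.50 in Tia and at most 0.07 in Star.

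RPS24, one of the genes mutated in Diamond-Blackfan anaemia, had 717 and 852 RPKM in Tia and 500.3 and 639 RPKM in Star (isotig01810). Its difference was 0.25 in Tia and 0.35 in Star, and the active library of Tia was above the hibernating library of Star. RPS28 had one of the smallest differences, from 523 to 621 RPKM in Tia and from 392 to 397 RPKM in Star by isotig06188, a mean of 0.13 (standard error 0.35, adjusted p = 0.888 from limma). Over the 13 small-subunit names, RPS19BP1 left out, the median difference was 0.56 in Tia and 0.24 in Star, and 12 of 13 were higher in both bears.

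In the large subunit RPL36 had the largest difference of all 34 genes. It went from 625 to 1226 RPKM in Tia, which is 1.96-fold, and from 580.5 to 764 RPKM in Star, which is 1.32-fold (isotig15219, 456 bases). Both hibernating libraries were above both active ones. The mean log2 difference was 0.68 (standard error 0.35, adjusted p = 0.600 from limma) and the score 0.810, the only one of at least 0.8 among the 34. RPL14 went from 590.0 to 895 RPKM in Tia but from 592 to 636 RPKM in Star (isotig02271), so that the active libraries were level and the hibernating ones apart.

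RPL22L1 and RPL22 are paralogs, of which RPL22 is the usual large-subunit protein. RPL22L1 went from 76.0 to 120.3 RPKM in Tia and from 68.8 to 95.3 RPKM in Star (isotig10181), with both hibernating values above both active ones. Its differences of 0.66 and 0.47 gave a mean of 0.56 (standard error 0.24, adjusted p = 0.564 from limma). RPL22 stood higher, at 264 and 304 RPKM in Tia and 191 and 255 RPKM in Star (isotig03382), and its states overlapped, with differences of 0.21 and 0.42. RPL22 was thus 1 of the 4 genes among the 34 whose difference was larger in Star.

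RPL5 and RPL11 bind the smallest RNA of the large subunit before assembly and, when unassembled, hold back the p53 regulator MDM2. RPL5 went from 131 to 177 RPKM in Tia and from 115 to 134 RPKM in Star (isotig01441), with no overlap between the states and a mean log2 difference of 0.33 (standard error 0.25, adjusted p = 0.696 from limma). RPL11 cannot be read in the same way, because the only transcript with its name has 2097 bases and stood at 1.06 to 2.17 RPKM. RPLP1, an acidic protein of the stalk that recruits elongation factors, went from 371 to 506 RPKM in Tia and from 365 to 395 RPKM in Star (isotig02207).

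RPL26, which contacts the RNA near the exit of the peptide tunnel, had the same difference of 0.37 in both bears. Its RPKM was 499.99 and 645 in Tia and 333 and 430 in Star (isotig06210), so that the bears differed more than the states. RPL36A was higher by 0.59 in Tia and by 0.43 in Star, from 311 to 467 RPKM and from 228 to 308 RPKM (isotig00589).

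The smallest differences of the large subunit were those of RPL9, RPL6 and RPL4. RPL9 went from 565 to 755 RPKM in Tia and from 481 to 452 RPKM in Star (isotig01812), the only gene above 10 RPKM that was lower in hibernation in a bear. RPL6 stood at 332 and 396 RPKM in Tia and at 249 and 270 RPKM in Star, and RPL4 at 256 and 339 RPKM in Tia and at 217 and 218 RPKM in Star (isotig12404). Over the 20 large-subunit names the median difference was 0.45 in Tia and 0.23 in Star, and 19 of 20 were higher in both bears. The subunits thus had like medians, and no test of a difference between them was made.

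A limit of 10 RPKM on the mean was set after the values were seen. It separates 30 genes at 52.3 RPKM or more in every library from 4 lower names. Among these are RPL11, RPL15 and RPS19BP1. RPL15 stood at 3.21 and 4.32 RPKM in Tia and at 2.40 and 2.56 RPKM in Star. RPS19BP1 was at 8.87 and 8.61 RPKM in Tia and at 8.75 and 10.9 RPKM in Star. It was low beside the 30 genes only, as the median of all annotated transcripts was 3.91 to 4.54 RPKM by library. Of the 30 genes above the limit, 30 were higher in Tia and 29 in Star, with medians of 0.55 and 0.24. All values of the table are at 1 RPKM or more, so a transcript below that in any library is not analysed here.

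Of the 34 genes, 23 had 1 transcript and 11 had between 2 and 5, and transcripts of a gene are not independent. The 4 transcripts of RPLP1 hold nearly the same reads, with products of RPKM and length that differ by at most 0.567% in a library and log2 differences from 0.44 to 0.45 in Tia and of 0.11 in Star. The same is true of the RPL8 pair, at most 0.102% apart. RPL31 and the minor transcripts named next were picked after their values were seen. The 5 transcripts of RPL5 and the 5 of RPS28 were all higher in both bears. RPL4 was the only gene with transcripts on both sides. Its isotig12404 and isotig12403 were higher by 0.41 in Tia and 0.01 in Star, whereas isotig28149, at 1.301 to 3.28 RPKM, was lower by 0.62 and 0.05. A minor transcript of RPL36A, isotig03997, had the largest difference of the 57 in Tia, from 34.1 to 69.8 RPKM, and went from 32.2 to 44.6 RPKM in Star (score 0.818). A minor transcript of RPL31, isotig25318 of 1445 bases, was at 1.71 and 3.21 RPKM in Tia and at 1.85 and 3.55 RPKM in Star. Both were the transcripts with an unadjusted p under 0.05 (adjusted p = 0.549 and 0.541 from limma).

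Other genes of translation and of the TOP class did not all follow the same order of the bears. The examples were picked with their values known. GNB2L1, which encodes the ribosome-bound scaffold RACK1, was the 1 gene with a name among 4 listed ribosomal genes outside the naming rule, and had 407 and 581 RPKM in Tia and 375 and 368 RPKM in Star. Of 20 elongation factors and other mRNAs of the TOP class, 7 had a name (VIM, HNRNPA1, NACA, IPO7, EIF3E, EIF3H and EIF3L). No elongation factor was among them. Of the 7, 5 were higher in both bears and 1 was lower in both (of all annotated transcripts, 47.8% and 17.2%). At an adjusted p of 0.05, 0 of the 7 passed limma. Their median differences were 0.43 in Tia and 0.43 in Star. EIF3H, a subunit of the initiation factor that binds the small subunit, went from 75.4 to 131 RPKM in Tia and from 71.9 to 97.2 RPKM in Star. NACA, which binds new peptides as they leave the ribosome, went from 27.8 to 41.7 RPKM in Tia and from 30.3 to 47.8 RPKM in Star. IPO7, an import receptor that carries ribosomal proteins into the nucleus, was lower in both, from 18.3 to 11.7 RPKM and from 14.5 to 11.0 RPKM.

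Ribosome biogenesis, the making of ribosomal RNA and its assembly with the proteins, was represented by 23 of 64 listed genes. Of these 16 were higher in both bears and 2 lower in both, beside 47.8% and 17.2% of all annotated transcripts, 0 of them past limma's adjusted p of 0.05, with median differences of 0.24 in Tia and 0.31 in Star. RRN3, which brings RNA polymerase I to the ribosomal RNA genes, went from 9.16 to 12.4 RPKM in Tia and from 10.5 to 13.3 RPKM in Star. FBL, the methyltransferase fibrillarin, stood at 23.9 and 26.5 RPKM in Tia and at 22.1 and 27.5 RPKM in Star. The difference was smaller in Star than in Tia for 8 of the 23, RRN3 among them.

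Of 19 genes of the mTOR and S6 kinase pathway, 12 had a name, 5 were higher and 4 lower in both bears (47.8% and 17.2% of all annotated transcripts), and the medians were -0.04 in Tia and 0.08 in Star; 0 of the 12 had an adjusted p under 0.05 from limma. Of the S6 kinases, RPS6KB1 stood at 3.99 and 6.46 RPKM in Tia and at 5.13 and 5.26 RPKM in Star. RPS6KB2 was at 7.65 and 7.60 RPKM in Tia and at 9.27 and 9.65 RPKM in Star. RPS6KA3 was at 7.31 and 8.84 RPKM in Tia and at 5.45 and 6.31 RPKM in Star. LARP1, which binds the TOP tract when mTOR is off, stood at 6.95 and 10.3 RPKM in Tia and at 9.29 and 10.1 RPKM in Star. DEPTOR, an inhibitor of mTOR, had the largest difference of the list, from 18.1 to 8.43 RPKM in Tia and from 15.8 to 10.1 RPKM in Star, with both hibernating libraries below both active ones (adjusted p = 0.541 from limma, score 0.814). MTOR, RHEB and TSC1 also had lower values in both bears. EIF4EBP1, a repressor of cap-dependent initiation that mTOR inactivates, was at 55.2 and 35.6 RPKM in Tia and at 39.9 and 65.0 RPKM in Star, in opposite directions.

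Mitochondrial ribosomal proteins, which serve the separate ribosomes of that organelle, had 26 genes with a name. Of these 14 were higher in both bears and 3 lower in both, where 47.8% and 17.2% of all annotated transcripts were, with 0 at an adjusted p under 0.05 from limma. Their median difference was 0.01 in Tia and 0.23 in Star. Beside the cytosolic set, with 0.50 and 0.24, the values were close in Star and far apart in Tia. No test of this difference between lists was made.

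**Figure D4:**
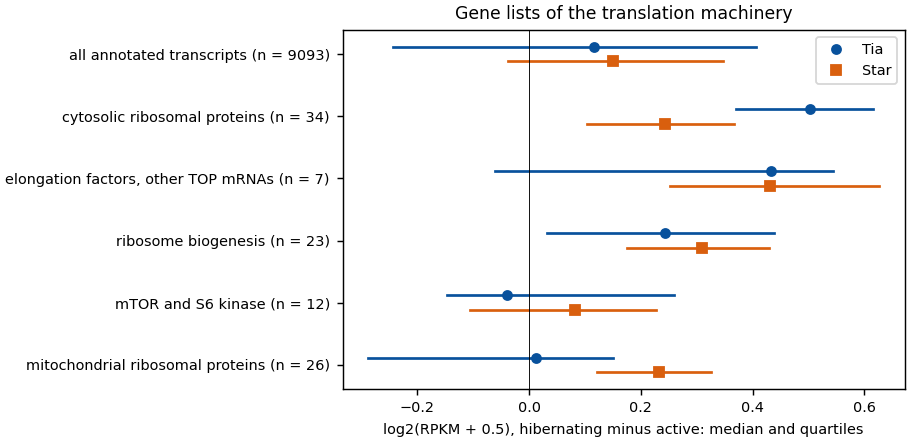
Median (symbol) and quartiles (line) of the difference between the states over the genes of each list, for Tia (circles) and Star (squares), with all annotated transcripts on top. The cytosolic ribosomal proteins have medians of 0.50 and 0.24, and those of the mitochondrial ribosome 0.01 and 0.23. The genes shown for elongation factors and other TOP mRNAs include no elongation factor.

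Transcripts listed as markers of other cells differed between the same libraries, and which cells made them was not tested. Of 7 fat-cell markers 3 had a name (SCD, FASN and LPL), in a table with no value under 1 RPKM. They summed to 422 RPKM in the active and 72.6 RPKM in the hibernating library of Tia, and to 34.8 and 25.5 RPKM in Star. Of 7 markers of fibroblasts and matrix 4 had a name. Their sums were 317 and 271 RPKM in Tia and 148 and 225 RPKM in Star. COL1A1 alone was at 193 RPKM in the active library of Tia. COL3A1 was at 116 and 254 RPKM in Tia and at 136 and 209.8 RPKM in Star, active and hibernating, with no overlap between the states. The summed fibre markers were 13237 and 10665 RPKM in Tia and 16078 and 14888 RPKM in Star. Endothelium, immune and satellite cells had 1 named marker each, of 5, 5 and 4 listed. PECAM1, of endothelium, was at 13.0 active and 10.8 hibernating RPKM in Tia and at 7.53 and 11.6 RPKM in Star. CD68, of macrophages, was at 3.94 and 6.41 RPKM in Tia and at 3.28 and 7.12 RPKM in Star. MYOD1, listed for satellite cells, was at 1.79 and 4.72 RPKM in Tia and at 2.42 and 4.92 RPKM in Star. For COL3A1, CD68 and MYOD1 both hibernating libraries were above both active ones (adjusted p = 0.541 from limma for each). The same held for COL1A2 and the fibre marker MYH2 (adjusted p = 0.652 and 0.784 from limma), and for 34.6% of all annotated transcripts. For SCD and FASN both were below, as for 8.8% of all annotated transcripts. COL1A1 and FN1, of the matrix list, were lower in hibernation in Tia and higher in Star. None of the 4 blood markers carried a name. The part of these differences in the result on ribosomal protein mRNAs was not tested. In bulk muscle more of an mRNA per fibre and more cells that express it cannot be told apart.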

How the data were processed

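Total RNA of gastrocnemius biopsies was poly(A)-selected, and single-end Illumina libraries were made from full-length cDNA. Whether the cDNA of these libraries had been normalized by nuclease, which lowers abundant transcripts such as those studied here, is not given in the sources used here. The authors aligned reads with SOAP2 (at most 2 mismatches) to transcripts assembled de novo, named them after human proteins, and deposited RPKM and transcript length. Depth was read from the steps of RPKM times length, with 93.6% to 99.0% of 500 low values per library within 0.1 read of a whole number.

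The states were compared on log2(RPKM + 0.5), 2 hibernating against 2 active libraries, by the two-sided test of limma 3.58.1 (R 4.3.3) with a variance prior that follows mean level and Benjamini-Hochberg adjustment across the 9093 named transcripts. The bears pair the libraries: the deviation of Tia from Star in one state correlated with that in the other (Pearson r = 0.356 across annotated transcripts), and a fit with the bear as a block was an alternative. Nothing says that the states of a bear were sampled or prepared more than once, so p-values measure the spread between these libraries. The score is the share of 53228 differences between bears within a state that a difference between states equals or exceeds in log2 ratio and in RPKM. Both were run on simulated data with differences far larger than those of the ribosomal protein mRNAs. Their power for differences of the size seen here was not tested. Python 3.11.15 and pandas 2.3.3 served for all other steps. Named genes are the 5 most abundant, the 5 largest and 5 smallest differences, paralogs, any name that is no ribosomal protein, genes with transcripts in opposite directions, and a list by role. The members and gene lists were chosen with earlier results of these data known, so no list was tested as a set. The name and values of 1 of the 34 genes are not reported here, although its transcript is in the counts and medians. No sequence of the transcripts or of bear genes was used here. The alternatives are given in the closing section.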

Additional observations from a re-analysis of the deposited data

Results flagged for a closer look

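Of the 34 genes, 2 differed in direction between the bears, a difference that was not tested. RPL9 (isotig01812) had a log2 difference of 0.42 in Tia and -0.091 in Star. RPS19BP1 (isotig32709), the binding protein that is no part of the ribosome, had -0.040 in Tia and 0.31 in Star.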

How the results depend on the processing

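The median log2 difference over the 57 transcripts, 0.34, lay between 0.17 and 0.35 under the pseudocounts, scalings, filter and gene-wise settings, and between 0.13 and 0.60 when a bear or a library was left out. The count higher in both bears was 53 of 57, against 47.8% of all annotated transcripts. It was 32 under median-ratio and 33 under upper-quartile scaling, against 29.3% and 31.2%. It was 31 of 34 with 1 transcript per gene or summed reads of a gene, against 48.7% and 48.9% of all annotated genes. The latter sum, and the alternatives for overlap, were chosen after seeing the data. The 28 transcripts with both hibernating libraries above both active ones became 9 under either scaling. Of all annotated transcripts this held for 34.6% as deposited, 19.3% under median-ratio and 21.0% under upper-quartile scaling. By gene the count was 15 of 34, against 35.8% of all annotated genes. The 2 transcripts at a score of 0.8 became 0 under either scaling and at a threshold of 0.9, and 1 by gene. The shares over all features, in either direction, were 3.61% as deposited, 3.53% under median-ratio and 3.43% under upper-quartile scaling. They were 1.08% at the threshold of 0.9 and 3.98% by gene. No ribosomal protein transcript had an adjusted p under 0.05 from limma in any alternative, the replicate block, which gave 0, included. For the 21 genes of the naming rule 15 of 294 alternatives turned the direction. Under median-ratio scaling these were RPL9 (-0.0038), RPS19BP1 (-0.025) and RPS28 (-0.033), and under upper-quartile scaling RPS19BP1 (-0.013) and RPS28 (-0.020). With libraries or bears left out, RPL4 ranged from -0.11 to 0.53, RPL6 from -0.091 to 0.46, RPL9 from -0.21 to 0.53, RPS6 from -0.046 to 0.67, RPS28 from -0.19 to 0.46 and RPS19BP1 from -0.040 to 0.31. Without Tia, RPL9 was at -0.091; RPS19BP1 was at 0.297 without the hibernating library of Tia and at -0.031 without that of Star. The cause was not tested. A fit with 1 library in a state assumes that it varies like the other state. There is 1 library per bear and state, and the low names rest on as few as 47.0 reads in a library.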
